A study of Mus musculus with 3 samples.

Results

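The endothelial genes described here are Kdr, Flt1, Tek, Tie1, Pecam1, Cd34, Eng, Emcn, Ramp2 and Egfl7, 10 genes by which cells lining blood vessels are commonly recognised. They were chosen by name, and a gene was taken from oligos with exactly 1 gene symbol in the platform annotation. Of the 10 genes, 9 had an oligo, 1 each. Egfl7, which encodes a secreted endothelial factor, had none with its symbol, so it had no ratio and enters only the promoter search below. Tie1 had a value on 2 arrays only. The other 8 had a value on all 3 arrays and were among the 19635 genes tested. In the study, mouse kidney at 13.5 dpc (days post coitum) was compared with metanephric mesenchyme at 10.5 dpc, both RNAs sharing each of 3 2-colour oligonucleotide arrays of 1 design, and no common reference was used. Both tissues were microdissected from normal CD1 embryos, with the sexes pooled, and no allele or agent is named in the labels. Both RNAs were amplified before labelling. Each array gave 1 deposited log2 ratio of the channels per oligo. Neither the numerator of that ratio nor the dye of each RNA is given in the sources used here, so values are called positive or negative as deposited, and neither sign is read as higher in the kidney or in the mesenchyme.

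Endothelial cells of the embryo respond to vascular endothelial growth factors through the receptor tyrosine kinases encoded by Kdr (VEGFR2), which carries most of the growth signal, and Flt1 (VEGFR1), which binds the ligand tightly and limits it. The Tie receptors, encoded by Tek (TIE2) and Tie1, respond to angiopoietins and steady the vessel wall. In the developing kidney, vessels form around and inside the condensing nephrons, and capillaries invade each glomerulus under the influence of VEGF made by podocytes. A ratio in bulk tissue does not tell a different number of endothelial cells from a different amount of RNA per cell. It also gives no level, so the presence of endothelial RNA in either tissue could not be checked from it.

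The endothelial genes did not share a side of the ratio. Of the 8 genes on all 3 arrays, 4 had a positive and 4 a negative mean (50.3% of all genes were positive), from -0.86 for Cd34 to 0.64 for Ramp2 on the log2 scale. Ramp2 and Cd34 stood farthest from 0, on opposite sides, and limma's 95% intervals of the other 6 spanned 0. No member passed the test over all genes (limma, moderated test of the mean against 0, Benjamini-Hochberg adjusted p under 0.05), where 0.00509% of genes passed, that is 1 of 19635. Before adjustment, 2 of the 8 (Ramp2 and Cd34) had a limma p under 0.05, beside 16.8% of all genes. The labels do not tell whether different tissue pools went onto the arrays, so these p-values measure only the spread between 3 hybridisations, which may be technical.

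**Figure D1:**
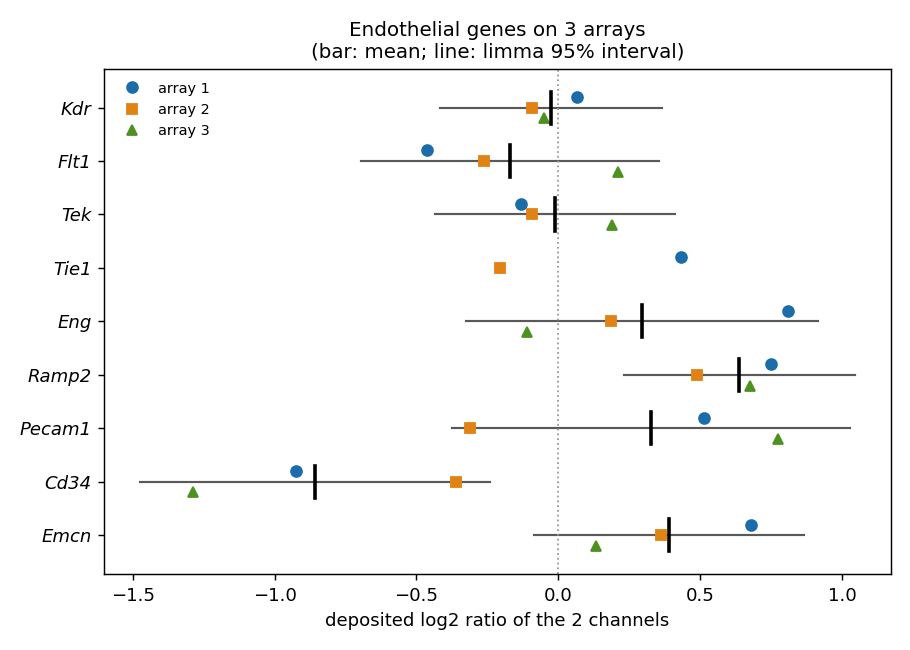
Deposited log2 ratio of the channels (x axis) for the 9 endothelial genes with an oligo (rows), with a symbol for each of the 3 arrays, a bar at the mean and a line for limma's 95% interval of the mean (none for Tie1, which had 2 arrays). Ramp2 and Emcn lie above 0 and Cd34 below 0 on all 3 arrays, and the other genes have arrays on both sides of 0.

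The members at either end of the range with a promoter entry are shown as sequence. RefSeq's promoter table (GRCm38.p6) held 8 of the 10 genes; Pecam1 and Ramp2 had no entry. Factors of the ETS family, which bind a GGAA core, are known regulators of endothelial genes. The 6-base form AGGAAG, which reads CTTCCT where it lies on the opposite strand, was searched in the 250 bases before each annotated start. The windows of Cd34, the lowest member, and of Emcn, the highest with an entry, follow 5′ to 3′ on the gene's strand, with each match in capitals.
Cd34, chr1:194938571-194938820, + strand: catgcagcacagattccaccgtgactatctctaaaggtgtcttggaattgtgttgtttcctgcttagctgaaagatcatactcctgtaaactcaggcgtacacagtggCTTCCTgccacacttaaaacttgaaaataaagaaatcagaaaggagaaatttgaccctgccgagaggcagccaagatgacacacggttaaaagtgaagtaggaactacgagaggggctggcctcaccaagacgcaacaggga
Emcn, chr3:137340828-137341077, + strand: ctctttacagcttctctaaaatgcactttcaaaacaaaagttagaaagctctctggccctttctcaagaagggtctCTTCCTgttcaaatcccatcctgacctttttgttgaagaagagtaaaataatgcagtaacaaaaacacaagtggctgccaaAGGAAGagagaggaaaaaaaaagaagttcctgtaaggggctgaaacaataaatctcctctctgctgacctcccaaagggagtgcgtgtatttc
Cd34 had 1 match and Emcn 2, so the letters occurred on both sides of the ratio. Of the 8 genes with an entry, 6 held the letters in at least 1 window, and Kdr and Tek held none. The share of all genes by that count is not given here, so it has no background beside it. By windows, 7 of 10 held them, against 29.5% of all 32851 windows of that length. Egfl7, which had no ratio, is counted here with 3 annotated starts and so gave 3 of the 10 windows. The windows are thus not separate genes. A match describes the letters in the window and is not a measured binding site.

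Of the VEGF receptors, Kdr had the narrowest spread of the 8 genes. Its log2 ratios were 0.068, -0.094 and -0.050 on arrays 1, 2 and 3, with a mean of -0.025 ± 0.084 (SD, n = 3 arrays). All 3 values lay close to 0, and limma's 95% interval of the mean ran from -0.42 to 0.37, so a difference of that size either way was not resolved. Flt1 had -0.46, -0.26 and 0.21, a mean of -0.17 ± 0.35 (limma adjusted p = 0.705). Arrays 1 and 2 were negative and array 3 positive for Flt1. In a difference within an array, a shift common to all genes cancels, but an adjustment that varies between spots does not. Kdr exceeded Flt1 by 0.53 and 0.17 on arrays 1 and 2 and stood below it by 0.26 on array 3. Their order was thus not the same on all arrays.

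Of the Tie receptors, Tek had a mean near 0, and Tie1 had too few values to be placed. Tek had -0.13, -0.092 and 0.19, with a mean of -0.011 ± 0.17 and an interval from -0.43 to 0.41 (limma adjusted p = 0.980). Without array 1 or without array 2 its mean turned positive, at 0.048 and 0.030. Tie1, an orphan receptor that pairs with the Tek protein, had 0.43 on array 1 and -0.21 on array 2, and no value on array 3. Its mean of 0.11 rests on 2 values of opposite sign, and in the fit that admitted genes on 2 arrays limma gave it an adjusted p of 0.865.

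Eng and Ramp2 encode accessory subunits of other receptors. Endoglin, the product of Eng, is a co-receptor for ligands of the TGF-beta and BMP family on endothelium, and Ramp2 is the protein that turns the calcitonin receptor-like receptor into a receptor for adrenomedullin. Ramp2 had 0.75, 0.49 and 0.68 on arrays 1, 2 and 3, the most positive mean of the members at 0.64 ± 0.14, a 1.56-fold difference (limma unadjusted p = 0.0111, adjusted p = 0.180). It was positive on all 3 arrays, and 14.8% of all genes had a mean of larger size. Limma's interval ran from 0.23 to 1.04. Without array 1 its unadjusted p was 0.0743, at a mean of 0.58. Eng had 0.81, 0.19 and -0.11, with a mean of 0.30 ± 0.47 (limma adjusted p = 0.576). Array 1 carried most of the Eng mean, which was 0.038 without it.

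Pecam1, Cd34 and Emcn encode glycoproteins of the endothelial surface. Pecam1 (CD31) joins neighbouring endothelial cells and is also carried by platelets and leukocytes. It had 0.52, -0.31 and 0.77, a mean of 0.33 ± 0.57 with array 2 on the other side (limma adjusted p = 0.586; mean 0.64 without array 2, 0.10 without array 3). Emcn, the sialomucin endomucin of venous and capillary endothelium, had 0.68, 0.36 and 0.13. All 3 Emcn values were positive, at a mean of 0.39 ± 0.27, and its interval reached from -0.085 to 0.87 (limma adjusted p = 0.366). Cd34, a sialomucin of small vessels and of blood progenitors, had -0.92, -0.36 and -1.29. It was negative on all 3 arrays, with a mean of -0.86 ± 0.47, a 1.81-fold difference (limma unadjusted p = 0.0172, adjusted p = 0.206), and 7.83% of all genes had a mean of larger size. Without array 1 or array 3 the unadjusted p of Cd34 was 0.0651 and 0.0541.

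Positive on all 3 arrays were 2 of the 8 members, where 21.5% of all genes were, and negative on all 3 was 1, where 19.9% were. A mean of at least 0.5 in size was held by 2 of 8, against 22.4% of all genes. Of either sign, 3 of 8 kept it on all arrays, against 41.3% of all genes, so with 8 genes these shares are near the background. The mean of the 8 genes was 0.16, -0.010 and 0.067 on arrays 1, 2 and 3, or 0.073 ± 0.087 (SD of the array means), and their median was 0.14, beside 0.0020 for all genes. The members were spread least on array 2, from -0.36 to 0.49, and reached from -0.92 to 0.81 on array 1 and from -1.29 to 0.77 on array 3. All genes were likewise spread least on array 2, with an SD of 0.63 there and 0.73 on both other arrays.

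Differences between members within each array describe the spread of the list. Over the members the SD was 0.635, 0.32 and 0.63 on arrays 1, 2 and 3. Over all genes it was larger on each array, at 0.73, 0.63 and 0.73. Ramp2 and Cd34 are the highest and the lowest member, so their difference is the widest of the means. Ramp2 exceeded Cd34 by 1.68, 0.85 and 1.96 on arrays 1, 2 and 3, a mean of 1.50 ± 0.58 or 2.82-fold. It exceeded Kdr by 0.68, 0.58 and 0.73, a mean of 0.66 ± 0.075. Emcn exceeded Cd34 by 1.60, 0.72 and 1.42, and Eng exceeded it by 1.73, 0.55 and 1.18. Kdr itself stood above Cd34 on each array, by 0.99, 0.27 and 1.24. Pecam1 and Cd34, both common labels of vessels in sections, differed by 1.44, 0.053 and 2.06, so array 2 hardly separated them. The pairs were chosen with the values known, and these differences are a description with no test.

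**Figure D2:**
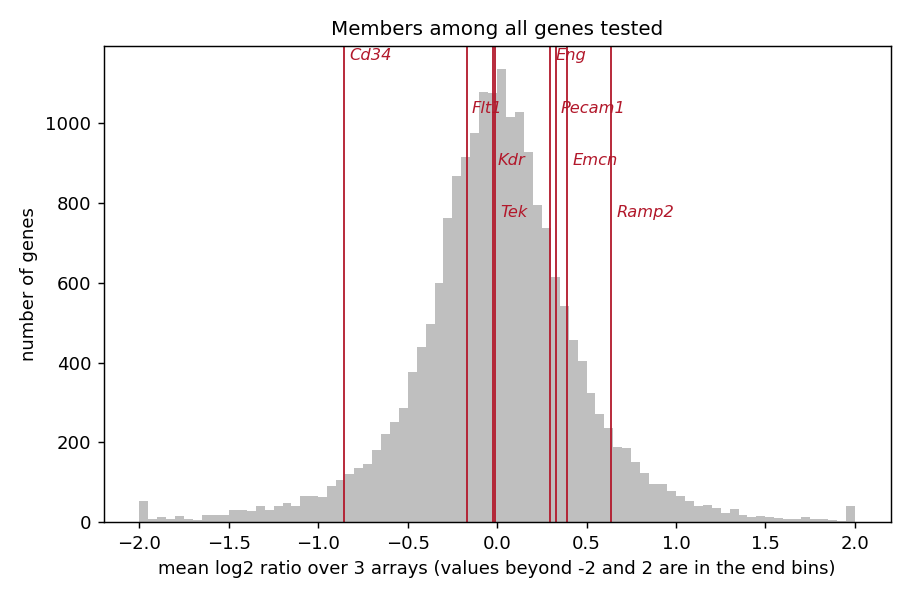
Histogram of the mean log2 ratio over 3 arrays (x axis) for the 19635 genes tested (y axis, number of genes), with a line at each of the 8 endothelial genes. Most of the lines stand inside the bulk of the distribution, with Cd34 at -0.86 and Ramp2 at 0.64 toward its shoulders.

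Among ligands and co-receptors of the VEGF family, Vegfa, the main endothelial growth factor of the forming kidney, had 0.40, 0.35 and 0.25. It was positive on all 3 arrays, at a mean of 0.33 ± 0.080 (limma adjusted p = 0.351). Pgf, placental growth factor, a ligand of Flt1 alone, was negative on all 3, with -0.58, -0.19 and -0.41 (mean -0.39 ± 0.20, limma adjusted p = 0.333). Vegfb, also a ligand of Flt1, stood at -0.030 ± 0.23, and Vegfd at 0.37 ± 0.66, a mean carried by 1.09 on array 3. Vegfc, a ligand of the lymphatic receptor encoded by Flt4, had -0.33 and -0.086 on arrays 1 and 3 and no value on array 2. Flt4 itself had -0.56, 0.31 and 0.85. The neuropilins, co-receptors that hold VEGF beside its receptor, were negative on all 3 arrays. Nrp1 had -0.56, -0.76 and -0.035 (mean -0.45 ± 0.38), and Nrp2 had -0.61, -0.16 and -0.93 (mean -0.57 ± 0.39). Of the 10 VEGF pathway genes tested, 0 passed limma over all genes, and the median was -0.062. An unadjusted limma p under 0.05 was held by 1 (Nrp2), beside 16.8% of all genes on either side and 7.83% on the negative. Plcg1, the phospholipase downstream of Kdr, averaged 2 oligos that disagreed, at 0.35 and -0.60 (mean -0.12 ± 0.53).

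The ligands of Tek differed in how well they were measured. Angpt2, the angiopoietin that loosens vessels, had -0.21, 0.68 and 2.67 on arrays 1, 2 and 3, so array 3 held most of its mean of 1.05 ± 1.47 (limma adjusted p = 0.449), which was 0.24 without it. Angpt1, the activating ligand made by cells around the vessel, had 0.43, 0.044 and 0.72 on the oligo that was measured on every array. A second Angpt1 oligo had -2.28 and -1.42 on arrays 1 and 2 and none on array 3, so the side of Angpt1 depends on the oligo. With both oligos admitted its mean was -0.30. Ptprb, the phosphatase that opposes Tek, had oligos on opposite sides, at -0.41 and 0.61, and a mean of 0.099 ± 0.30. Foxo1, a transcription factor that Tek signalling restrains, stood at 0.30 ± 0.050, and Angptl1, an angiopoietin-like protein, at -0.26 ± 0.25. Of the 8 angiopoietin pathway genes tested, 0 passed limma over all genes, and the median was 0.14. An unadjusted limma p under 0.05 was held by 0 of them, beside 16.8% of all genes.

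The partners of endoglin fell on both sides, with 8 positive and 7 negative means. Id1, a target of BMP signalling, had 0.85, 0.75 and 0.65, a narrow spread around a mean of 0.75 ± 0.097 (limma unadjusted p = 0.00539, adjusted p = 0.144). Tgfbr2, the type II TGF-beta receptor, had 0.79, 0.73 and 0.36 (mean 0.63 ± 0.24, limma adjusted p = 0.207), averaged over oligos at 1.04 and 0.21. Tgfb2 stood at 0.49 ± 0.29 and Tgfb1 at 0.33 ± 0.30, both ligands of that receptor. Acvrl1 (ALK1), the endothelial receptor that signals with endoglin, stood at 0.060 ± 0.099, and Gdf2, its circulating ligand BMP9, at -0.18 ± 0.23. Of 15 tested, 3 had an unadjusted p under 0.05, all positive (Id1, Tgfbr2 and Tgfb2), where 16.8% of all genes did on either side and 8.99% on the positive, 0 passed limma over all genes, and the median was 0.0054. Id1 and the TGF-beta genes are made by many cell types, and the cells of origin were not measured.

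The receptor and ligand of Ramp2 were spread more widely over the arrays than Ramp2 itself. Calcrl, the receptor it escorts, had -0.094, -0.019 and 0.83 (mean 0.24 ± 0.51), and Adm, which encodes adrenomedullin, had -0.36, -0.094 and 1.07 (mean 0.20 ± 0.76). Both were positive on array 3 alone. Ramp3, the other adrenomedullin partner of the family, had 0.32, 0.34 and 0.53 (mean 0.39 ± 0.12, limma adjusted p = 0.302). Ramp1, which gives the receptor for calcitonin gene-related peptide, had -0.91, -1.15 and 0.89, averaged over 2 oligos that differed. On arrays 1, 2 and 3 its oligos had -0.31, -0.13 and 0.031, and -1.51, -2.18 and 1.75, so the wide swing came from the second. Of the 5 genes tested, 0 passed limma over all genes and 0 had an unadjusted p under 0.05, beside 16.8% of all genes.

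**Figure D3:**
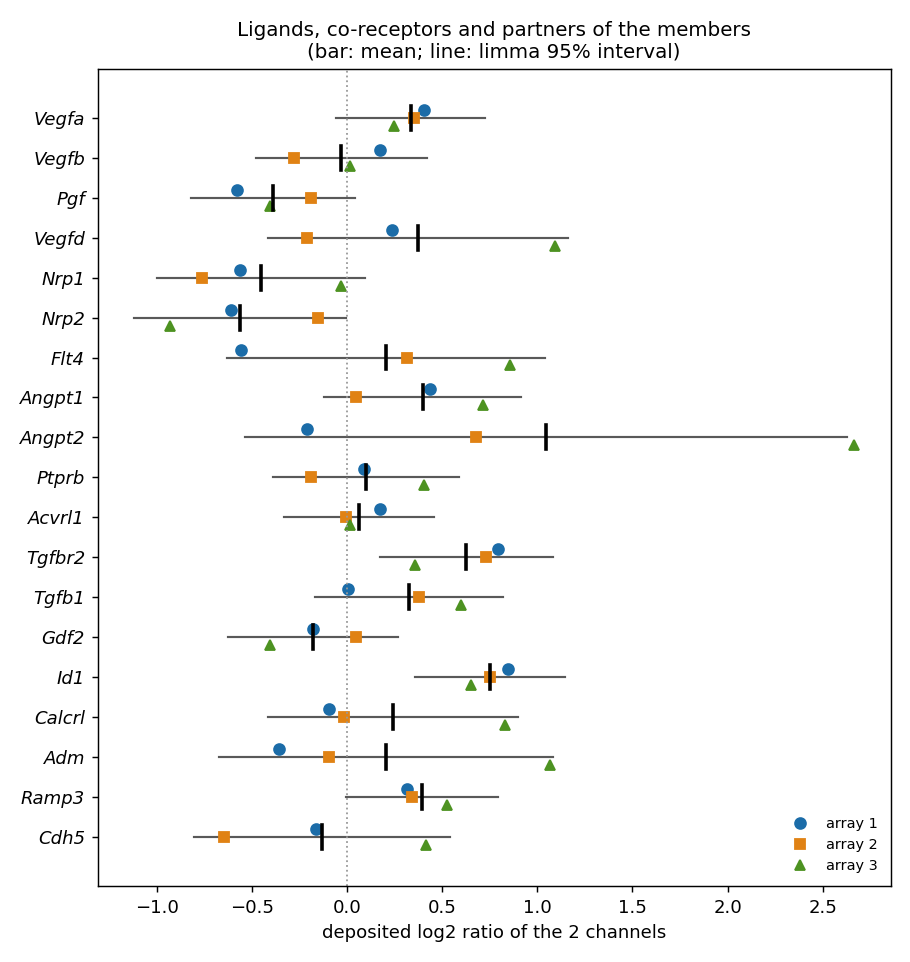
Deposited log2 ratio of the channels (x axis) for 19 ligands, co-receptors and partners of the endothelial genes (rows), with a symbol for each of the 3 arrays, a bar at the mean and a line for limma's 95% interval. Vegfa, Angpt1, Tgfbr2, Tgfb1, Id1 and Ramp3 are positive and Pgf, Nrp1 and Nrp2 negative on all 3 arrays, and Angpt2 ranges from -0.21 to 2.67. Angpt1 is drawn from the oligo measured on every array, and its other oligo, not drawn, had -2.28 and -1.42 on arrays 1 and 2.

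Other genes of the endothelial surface and its junctions also fell on both sides, with 14 positive and 16 negative means among 30 tested and a median of -0.0090. Icam2, an adhesion molecule of resting endothelium, had 0.83, 0.83 and 0.82 (mean 0.83 ± 0.0090, limma unadjusted p = 0.00324, adjusted p = 0.124). Jam3, a junctional adhesion molecule also made by other cells, had -1.69, -1.17 and -1.72 (mean -1.53 ± 0.31, limma adjusted p = 0.107). Cdh5, the cadherin of endothelial junctions, had -0.17, -0.65 and 0.42, around a mean of -0.13 ± 0.53. Within an array Pecam1 stood above Cdh5 by 0.68, 0.34 and 0.36. In this list 7 genes had an unadjusted p under 0.05 on the positive side and 1 on the negative, where 8.99% and 7.83% of all genes did, and 0 passed limma over all genes. When 17 vessel markers were counted as 1 list (the members with Cdh5, Cldn5, Esam, Icam2, Sox17, Sox18 and Robo4), 15 were tested. Of these, 8 had a positive and 7 a negative mean. An unadjusted limma p under 0.05 was held by 3 of the 15, beside 16.8% of all genes.

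The transcription factors used by endothelium had the widest range of the endothelial lists, from -1.94 to 1.96. Etv2, the ETS factor that starts the endothelial and blood lineages in the early embryo, had -1.77, -1.62 and -2.44 (mean -1.94 ± 0.44, a 3.85-fold difference, limma unadjusted p = 0.000596, adjusted p = 0.107). Heyl, a Notch target of vessel walls and early nephrons, had 1.94, 1.31 and 1.92 (mean 1.72 ± 0.36, limma adjusted p = 0.107). Of 23 tested, 6 had an unadjusted p under 0.05 (4 positive, 2 negative), beside 16.8% of all genes, 0 passed limma over all genes, and the median was 0.0076. Among arterial and venous genes, Gja4, a connexin of arterial endothelium, stood at -0.72 ± 0.24 (limma adjusted p = 0.180). Ephb4, the venous ephrin receptor, had -1.32, -0.38 and -1.12 on the oligo measured on every array and -0.13 and -0.041 on arrays 1 and 2 of its other oligo. Of those 14 genes 0 passed limma over all genes and 3 had an unadjusted p under 0.05, all negative, beside 7.83% of all genes on that side.

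**Figure D4:**
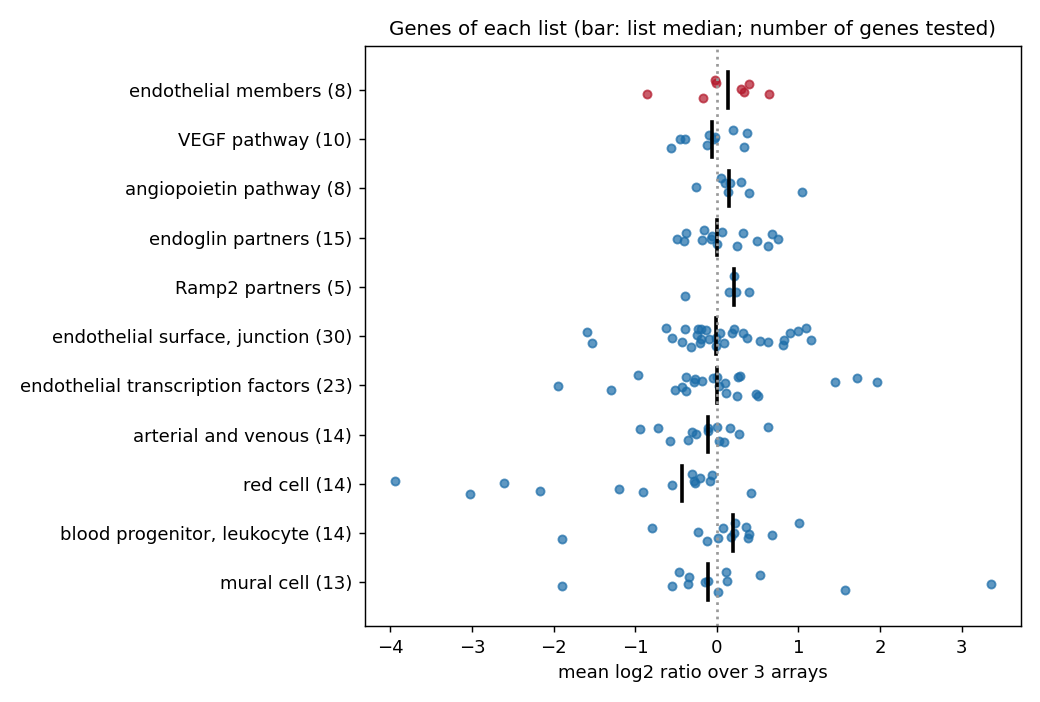
Mean log2 ratio over 3 arrays (x axis) of each tested gene in the endothelial members and 10 related lists (rows, with the number of genes tested), with a bar at each list's median. The medians of the endothelial lists lie near 0, and red-cell genes reach -3.95.

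Some members are also made by blood cells and their precursors. Among these, Cd34 had a negative mean (-0.86) and Pecam1 a positive mean (0.33), and genes of blood cells also lay on both sides. Of 14 red-cell genes tested, 13 had a negative mean and 11 were negative on all 3 arrays. Over all genes, 50.3% had a positive mean and 19.9% were negative on all 3 arrays. The red-cell median was -0.43, with array means of -1.22, -0.93 and -1.11. Lmo2 and Tal1 of this list were also listed among the endothelial transcription factors. Hbb-bh1, an embryonic globin, stood at -3.95 ± 0.32 and Klf1, the red-cell transcription factor, at -3.02 ± 0.29 (limma adjusted p = 0.107 for both). The other globins lay nearer 0, with Hba-x at -0.21 ± 0.15, Hba-a1 at -0.084 ± 0.13 and Hbb-y at -0.062 ± 0.26, and Slc4a1, the anion exchanger of the red-cell membrane, was the 1 gene with a positive mean, at 0.42 ± 0.41. The list of blood progenitors and leukocytes went both ways, with 10 positive and 4 negative means among 14 and a median of 0.19. Gfi1b, a factor of red-cell and platelet precursors, stood at -1.90 ± 0.35 and the myeloid integrin Itgam at -0.80 ± 0.24 (limma adjusted p = 0.107 and 0.157). On the other side of that list Myb, a transcription factor of blood progenitors, stood at 1.00 ± 0.51 and Fcer1g, an Fc receptor chain of myeloid cells, at 0.67 ± 0.46, both with an unadjusted p under 0.05. These 2 genes and the 4 named after Hbb-bh1 and Klf1 were chosen after their values were seen. Mural cells, the pericytes and smooth muscle that wrap vessels, had 6 positive and 7 negative means among 13 and a median of -0.10. In that list Kcnj8, a potassium channel subunit of pericytes, stood at 3.36 ± 0.88, 10.2-fold, and Tagln, a smooth muscle protein, at -1.90 ± 0.25 (limma adjusted p = 0.107 for both). Limma passed 0 genes of these 3 lists over all genes, and 6, 4 and 4 of 14, 14 and 13 had an unadjusted p under 0.05, beside 16.8% of all genes. The part of these cells in the values of Cd34 and of the other members was not tested.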

How the data were processed

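The authors deposited 1 log2 ratio of the channels per oligo and array. Per the labels, images were read with ImaGene 5.5 and ratios were adjusted in R by print-tip loess and between arrays; a lowess curve on 20% of the data, with control values raised to at least 10, is also named, and its place among the steps is not stated. Such steps centre the ratios near 0 and hide a shift common to most genes, and amplification can alter single ratios. A dye swap is listed in the labels but not tied to an array. The arrays correlated above 0 across genes, and all signs were kept. Pearson r was 0.46 for arrays 1 and 2, 0.17 for arrays 1 and 3, and 0.16 for arrays 2 and 3. Array 3 thus followed the other arrays less closely, and genes are not independent replicates. Intensities of spots were not used here, so dim or saturated spots could not be judged, and the number of arrays limits the precision.

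Of 22702 spots, 881 controls were left out. Of 21821 library oligos, 16658 had 1 gene symbol, 137 several and 5026 none; the latter kinds kept their own identifiers. A value on all 3 arrays was required, oligos of 1 symbol were averaged, and 19635 genes were tested in R 4.3.3 by limma 3.58.1 (intercept-only lmFit and eBayes, two-sided, Benjamini-Hochberg over all genes, threshold 0.05), a step that was checked on simulated data. An exact sign-flip test on 3 arrays cannot go below p = 0.25. No array pair was identical.

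The members and the gene lists were chosen with earlier results of these data known. Named were all members, 17 direct partners whatever their values, and in each list the 2 genes of smallest p among those not already named; others are marked where they appear. Vegfc, Tie1 and Egfl7 lacked 3 values. Alternatives were 11 fits, each changing 1 choice.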

Additional observations from a re-analysis of the deposited data

How the results depend on the processing

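In the 11 alternative fits no endothelial gene passed limma's adjusted p of 0.05. The count at an unadjusted p under 0.05 was 2 as reported, ran from 0 to 2 with 1 array left out (0 without array 1, 1 without array 3), was 3 with array weights, where Emcn joined, and was 2 in the other fits. The mean of the members ran from 0.028 to 0.12 and their median from 0.043 to 0.19, all within the spread between arrays. Ramp2 kept a positive mean (0.58 to 0.71) and Cd34 a negative one (-1.11 to -0.64) in all 11. The count over all genes, 1 as reported (Slc2a1, at the lowest deposited ratio), was 0 with any 1 array left out, 0 with arrays scaled to one spread and 0 with oligos at the lowest ratio left out. At an unadjusted p under 0.05, 16.8% of genes were called as reported, 8.53% without array 1, 10.5% without array 2, 19.9% without array 3 and 21.5% with array weights.

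Signs turned for genes near 0 or carried by 1 array, and for Angpt1. In the fit without array 3 the second oligo of Angpt1 was admitted, and its mean there was -0.81. With 1 array left out, the range was -0.072 to 0.0089 for Kdr, -0.11 to 0.048 for Tek, -0.41 to 0.11 for Plcg1, -0.13 to 0.095 for Vegfb, -0.41 to 0.13 for Cdh5, -0.12 to 0.58 for Flt4, -0.81 to 0.57 for Angpt1, -0.052 to 0.24 for Ptprb, -0.056 to 0.41 for Calcrl and -0.23 to 0.49 for Adm. With array weights Ptprb stood at -0.0033 and Adm at -0.020, and with genes on 2 arrays admitted Angpt1 stood at -0.30. The causes were not tested, beyond the added oligo of Angpt1. The arrays form 1 group, and each ratio already sets both RNAs of the same array against each other, so no further pairing was made. Intensities were not used here, so the limit set by signal over background is unknown.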
